A study of Mus musculus with 12 samples.

Results

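The nuclear genes of mitochondrial respiratory complex I, the NADH dehydrogenase of the electron transport chain, were described in mouse OT-1 CD8+ T cells. The members were all protein-coding genes whose GENCODE M21 symbol begins with Nduf followed by a, ab, af, b, c, s or v and a number. The rule found 46 genes among 55487 gene identifiers, 21974 of them protein-coding. They comprised 7 core subunits, 31 accessory subunits and 8 assembly genes (Ndufaf1 to Ndufaf8). Another 5 symbols matched but were left out because they are annotated as 4 pseudogenes and 1 long noncoding RNA. All 46 members passed the low-count filter and were tested in both comparisons.

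Complex I takes electrons from NADH, passes them along a chain of iron-sulfur clusters to ubiquinone and pumps protons across the inner mitochondrial membrane. Its core subunits are shared with bacteria and do the catalysis and pumping. Nuclear DNA encodes the core subunits of the matrix arm and mitochondrial DNA those of the membrane arm. Accessory subunits surround and stabilise the core, and assembly factors help to build the complex but are absent from the finished enzyme. Activated CD8+ T cells use both glycolysis and mitochondrial respiration as they grow and divide. Ndufa4 and its paralogue Ndufa4l2 keep complex I names but Ndufa4 is now assigned to cytochrome c oxidase, so these genes are named apart below.

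The RNA came from splenic OT-1 CD8+ T cells, whose transgenic receptor recognises an ovalbumin peptide, in 4 groups of 3 samples. Female and Male cells from mice of each sex were activated for 3 days with beads carrying antibodies to CD3 and CD28, together with recombinant mouse IL2. The labels place WT and KD in another batch, made of male cells that were electroporated and cultured for 3 days, WT with guide RNA alone and KD with Cas9 and guide RNA directed at Kdm5d, a histone demethylase gene on the Y chromosome. The series asks how this gene bears on sex differences in CD8+ T cells. Mouse ages, the number of mice and whether samples came from separate mice or cultures were not given in the sources used here. The p-values therefore measure the spread between these samples, which may be technical.

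Total counts ranged from 78748647 to 110803318 per sample, and the members had between 41 and 13497 counts in a sample. Levels are given as counts per 1000000 (CPM) after scaling, separately in the table that holds Female and Male and in the table that holds WT and KD. Kdm5d itself was at 50.9 ± 2.22 CPM in WT and 22.0 ± 0.763 in KD (SD, n = 3), which left 43.3% of the WT level (edgeR, log2 fold change -1.21, adjusted p = 3.13e-08). An exact two-sided permutation test gave p = 0.1, the smallest that 3 against 3 samples allow. The CD8+ T cell markers Cd3e, Cd3d, Cd3g, Cd8a, Cd8b1 and Trac summed to 1597 to 1618 CPM in Female, 1505 to 1540 in Male, 1842 to 1896 in WT and 1716 to 1769 in KD. Markers of CD4, B, myeloid, NK, erythroid and platelet cells each summed to at most 7.23 CPM in any sample, with Ms4a1, S100a8 and S100a9 at 0 in Female and Male. The 7 erythroid and platelet markers summed to 2.95 to 3.29 CPM in Female and 0.610 to 1.36 in Male. Of these Pf4 (0.952 and 0.00754 CPM) and Ppbp (1.38 and 0) were called lower in Male. Alas2 (0.733 and 0.976 CPM) was not called (edgeR, adjusted p = 0.29). Male sums were higher without overlap for CD4 (2.23 to 3.62 against 3.96 to 5.21 CPM), myeloid (2.27 to 3.02 against 3.32 to 3.51) and NK markers (0.165 to 0.457 against 0.486 to 0.531), while those of B cell markers overlapped. These rises lay mostly in Foxp3 (2.82 CPM in Female and 4.38 in Male), Cd68 (2.12 and 3.11) and Klrb1c (0.299 and 0.499). In the same lists Cd4 (0.182 and 0) was called lower in Male (edgeR, adjusted p = 0.00084). Itgam (0.151 and 0), Lyz2 (0.0343 and 0) and Ncr1 (0.0590 and 0.0108) also had lower Male means. KD sums were lower than WT sums without overlap for CD4 (2.39 to 2.94 CPM in WT against 1.24 to 1.77 in KD) and B cell markers (5.40 to 6.49 against 4.00 to 5.23). The same held for myeloid (6.20 to 7.23 against 4.42 to 5.38) and NK markers (1.5 to 1.6 against 0.590 to 1.24). These falls lay mostly in Foxp3 (2.65 and 1.46 CPM), Cd79b (4.93 and 3.61), Cd68 (6.20 and 4.13) and Klrb1c (1.41 and 0.772). In the same lists Cd4 (0.0152 and 0.0660), Cd79a (0.902 and 0.957), Itgam (0.155 and 0.193) and Ncr1 (0.131 and 0.156) had higher KD means. The sum of erythroid and platelet markers was higher in KD (0.477 to 0.649 CPM in WT against 0.870 to 1.03). It was mostly Alas2 (0.565 CPM in WT and 0.866 in KD), which was not called (edgeR, adjusted p = 0.062). The part of these cells in the results was not tested. In such bulk samples fewer cells of a type and less RNA per cell cannot be told apart.

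The members have short transcripts. These had a median length of 921 bases, with 26 of 46 under 1000 bases, whereas the median over tested protein-coding genes was 2769 bases. Divided by transcript length, core subunits had a median level of 35.6 CPM per kb in Female and 42.3 in WT, and accessory subunits 31.7 and 37.0. Assembly genes lay lower, at 6.91 CPM per kb in Female and 7.22 in WT. Within Female, the highest levels were 89.8 ± 3.09 CPM per kb for Ndufb8, a subunit of the distal membrane arm, and 72.8 ± 2.26 for Ndufa7 (SD, n = 3). Further down, Ndufb9 at 58.8 ± 2.99, Ndufa6 at 58.6 ± 3.59 and Ndufv1 at 57.5 ± 1.27 CPM per kb, did not differ beyond their spread. The lowest were Ndufa4l2 at 1.11 ± 0.261, Ndufaf2 at 2.82 ± 0.313 and Ndufa5 at 2.86 ± 0.265 CPM per kb, the last 2 also within their spread. The assembly medians of Male and KD were as low, at 6.63 and 7.09 CPM per kb.

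**Figure D1:**
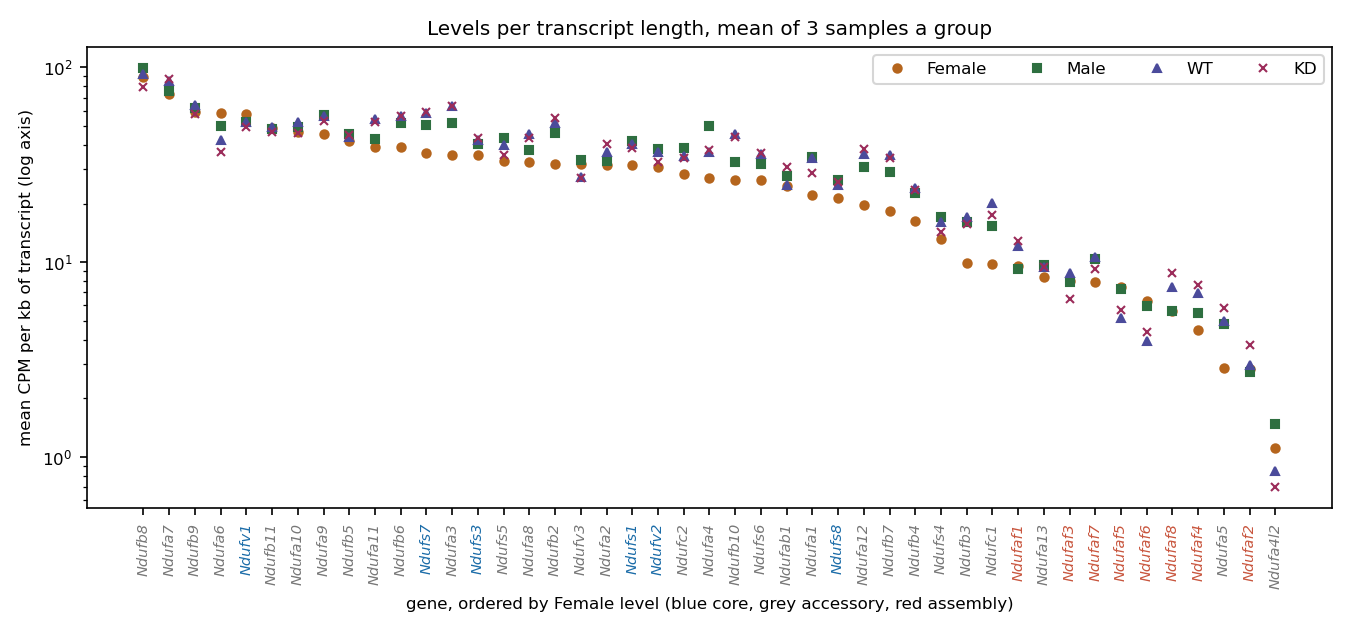
Mean level of 45 of the genes in CPM per kb of transcript (log axis) in Female, Male, WT and KD, with 3 samples a group; label colours give the class. Assembly genes crowd the right, with a median of 6.91 CPM per kb in Female against 35.6 for core subunits, and Ndufa4l2 is lowest at 1.11.

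The promoters of the members were examined because nuclear genes of the respiratory chain are classical targets of nuclear respiratory factors. RefSeq promoter entries (GRCm38.p6) matched 40 of the 46 members, with 42 windows of the 250 bases before a transcription start. Among the members without an entry were Ndufa2, Ndufa4l2, Ndufaf6, Ndufb9 and Ndufs1. The NRF1 motif GCGCATGC, searched on both strands, was present in 4 member windows (9.5%) and in 2.3% of all 32851 windows. The ETS motif CCGGAAG, bound by the nuclear respiratory factor NRF2 (Gabpa and Gabpb1), was in 11.9% of member windows against 6.9% of all, and the estrogen-related receptor motif AAGGTCA in 7.1% against 4.1%. The SP1 motif GGGCGG was in 45.2% against 32.7%, the CCAAT box in 33.3% against 33.8%, the E-box CACGTG in 7.1% against 6.0% and TATAAA in 11.9% against 12.4%. The YY1 motif AAGATGGC was in 0 of the 42 windows and in 1.6% of all. Member windows had a median GC content of 58.2% against 52.4% for all windows. These counts describe letters and carry no test.

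The 4 windows with the NRF1 motif are shown since they hold the motif with the largest ratio to all windows and belong to genes that took different courses below. Each is written 5′ to 3′ in the direction of the gene, ending at the base before its RefSeq start, and the capitals mark the NRF1 motif on either strand, overlapping matches joined.
Ndufa11 (chr17:56717512-56717761, plus strand): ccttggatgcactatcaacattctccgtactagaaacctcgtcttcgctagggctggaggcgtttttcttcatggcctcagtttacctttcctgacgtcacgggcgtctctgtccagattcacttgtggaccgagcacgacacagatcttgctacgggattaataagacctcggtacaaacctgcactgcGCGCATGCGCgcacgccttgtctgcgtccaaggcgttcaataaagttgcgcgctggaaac
Ndufa6 (chr15:82354292-82354541, minus strand): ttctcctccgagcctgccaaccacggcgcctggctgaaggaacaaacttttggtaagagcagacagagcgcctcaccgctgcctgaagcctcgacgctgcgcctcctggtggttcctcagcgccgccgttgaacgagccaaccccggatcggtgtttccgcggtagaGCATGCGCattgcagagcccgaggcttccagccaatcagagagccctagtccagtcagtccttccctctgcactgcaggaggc
Ndufa8 (chr2:36049339-36049588, minus strand): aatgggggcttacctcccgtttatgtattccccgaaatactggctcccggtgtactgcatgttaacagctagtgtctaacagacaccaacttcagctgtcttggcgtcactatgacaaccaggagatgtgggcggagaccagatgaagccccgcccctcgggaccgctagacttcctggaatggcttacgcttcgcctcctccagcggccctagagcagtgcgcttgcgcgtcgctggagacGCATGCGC
Ndufaf4 (chr4:24897833-24898082, plus strand): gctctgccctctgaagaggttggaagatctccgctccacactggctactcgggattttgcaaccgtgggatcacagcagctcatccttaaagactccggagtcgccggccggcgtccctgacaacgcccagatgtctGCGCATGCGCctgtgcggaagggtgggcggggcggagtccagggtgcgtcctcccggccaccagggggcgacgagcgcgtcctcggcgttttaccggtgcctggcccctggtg
In Ndufa8 the motif begins 8 bases before the RefSeq start, in Ndufa11 60, in Ndufa6 83 and in Ndufaf4 113 bases. GENCODE M21 starts Ndufa8 at chr2:36049406 and Ndufa6 at chr15:82354322, so both windows run into the gene by that annotation. The Ndufa8 motif then lies inside the gene. The log2 fold changes of the 4 genes in Male against Female were 0.20 for Ndufa8, 0.14 for Ndufa11, -0.23 for Ndufa6 and 0.29 for Ndufaf4. In KD against WT they were -0.06, -0.04, -0.20 and 0.14 in the same order. Genes with this motif thus lay on both sides of 0 in each comparison. Ndufa8 and Ndufa11 were called in Male against Female alone, and Ndufa11 not without Female replicate 3 or Male replicate 2.

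Most nuclear complex I subunit transcripts were higher in Male than in Female. Of the 46 members, 30 were higher, 2 were lower and 14 were not called (edgeR quasi-likelihood test, Benjamini-Hochberg adjustment over all genes tested, called at an adjusted p under 0.05). The rise took in core and accessory subunits in both arms of the complex, by 32.7% for Ndufs1, 39.6% for Ndufs7 and 62.0% for Ndufb3. The lower 2 were Ndufv1, the NADH-binding subunit, and Ndufa6. Assembly genes did not share the pattern by these calls, with 2 higher, 0 lower and 6 not called.

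The called share of members was 69.6%. Over all 20208 genes tested it was 49.8%, with 23.5% higher in Male and 26.3% lower. Over the 13130 tested protein-coding genes it was 64%, with 27.4% higher and 36.7% lower. The members' share of calls was thus near that of protein-coding genes, but its direction was mostly upward. Male and Female samples did not overlap in 32 of 46 members, against 58.3% of all genes tested. The median log2 fold change was 0.31 for core subunits and 0.33 for accessory subunits, against 0.01 over all genes and -0.06 over protein-coding genes. With trends of transcript length and GC removed the core median was 0.18. For assembly genes the median was -0.03 without that removal, -0.10 with it, and 0.03 when only protein-coding genes were fitted.

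Summed over the 31 accessory subunits, Female samples held 813 to 856 CPM and Male samples 988 to 1000.4. The sums of the 8 assembly genes were 75.6 to 79.7 CPM in Female and 83.5 to 86.5 in Male. In both classes every Male sum was above every Female sum. The assembly rise lay in Ndufaf7 (mean 13.9 CPM in Female and 18.2 in Male) and Ndufaf4 (16.4 and 19.9). The other 6 assembly genes were not called, with log2 fold changes between -0.08 and 0.01.

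Among core subunits, Ndufs1 carries iron-sulfur clusters and is the largest subunit of the complex. It was at 83.5, 80.5 and 82.2 CPM in the Female samples and 112, 106 and 109 in the Male samples (log2 fold change 0.41, SE 0.029, adjusted p = 8.8e-07). Ndufs7, which holds the last iron-sulfur cluster before ubiquinone, was at 26.4, 28.2 and 28.2 CPM in Female and 38.6, 37.1 and 39.9 in Male (0.48, SE 0.043, adjusted p = 5.6e-06). Every Male sample lay well above every Female sample for both genes. Ndufv2, an iron-sulfur subunit beside the NADH site, was at 53.1, 52.3 and 51.1 CPM in Female and 66.2, 64.9 and 62.7 in Male (0.31, adjusted p = 1.2e-05). Ndufs8, another iron-sulfur subunit, had 21.6, 20.8 and 20.7 CPM against 27.3, 25.6 and 25.0 (0.31, adjusted p = 0.00026). Ndufs3 had 39.2, 35.7 and 36.8 CPM in Female and 40.7, 43.3 and 43.2 in Male, groups that just missed each other (0.19, adjusted p = 0.0044). With trends of transcript length and GC removed, Ndufs3 was not called (adjusted p = 0.061). It also shares 22.8% of its 31-base subsequences with transcripts of other genes, so its counts are uncertain.

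Ndufv1 went the other way. It binds NADH and the flavin that accepts its electrons. It was at 97.9, 95.0 and 93.8 CPM in Female and 86.3, 85.8 and 90.9 in Male (log2 fold change -0.12, SE 0.030, adjusted p = 0.0057). Its Male values were all below its Female values. The proteins Ndufv1 and Ndufv2 sit together at the tip of the matrix arm, and their transcripts were thus called in opposite directions. When only protein-coding genes were fitted, Ndufv1 was at the edge of the threshold (-0.07, adjusted p = 0.045).

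Accessory subunits were higher in Male for 23 of 31 genes, lower for 1 and not called for 7. Sorted by place, all 9 subunits of the proximal membrane arm were called higher, with log2 fold changes of 0.09 to 0.66 and a median of 0.38. In the distal membrane arm 7 of 10 were higher and 0 lower, with a median of 0.36. The module that binds NADH, core subunits included, had 5 higher and 1 lower of 8, and the module that binds ubiquinone also 5 higher and 1 lower of 8. Ndufa1, an X-linked subunit of the proximal arm (chrX:37187588-37191163, minus strand), was at 9.05, 8.86 and 9.80 CPM in Female and 14.7, 14.3 and 14.7 in Male (0.66, SE 0.063, adjusted p = 9.6e-06). The other X-linked member, Ndufb11 of the distal arm, had 45.2, 41.3 and 46.1 CPM in Female and 43.7, 44.1 and 43.6 in Male (-0.01, SE 0.043, adjusted p = 0.85). Its counts are uncertain, since it shares 19.1% of its 31-base subsequences with another gene. Also, 12.9% of its exon bases lie opposite Rbm10, which was lower in Male (-0.20, adjusted p = 3.7e-05). Of the X-linked genes 1 was thus called higher in Male, while the groups of the other overlapped.

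Ndufb3 had the smallest p among the distal subunits, with 7.36, 7.48 and 7.95 CPM in Female and 12.0, 12.6 and 12.3 in Male (log2 fold change 0.70, adjusted p = 9.9e-06), and it shares 13.5% of its 31-base subsequences with other genes. Ndufa9, which belongs to the ubiquinone-binding module, was at 67.9, 64.1 and 65.2 CPM in Female and 82.7, 81.0 and 84.1 in Male (0.33, SE 0.029, adjusted p = 4.6e-06). Neither gene's groups came near each other. Ndufa6, which binds the acyl carrier protein Ndufab1, was the 1 accessory subunit called lower, at 36.5, 32.3 and 35.0 CPM in Female and 29.0, 29.98 and 29.7 in Male (-0.23, SE 0.047, adjusted p = 0.0025). Ndufab1, its partner and also a protein of mitochondrial fatty acid synthesis, had 34.9, 34.4 and 34.9 CPM in Female and 36.7, 41.1 and 39.95 in Male (0.18, adjusted p = 0.007). The pair was thus called in opposite directions, although Ndufab1 was not called with the length and GC trends removed (adjusted p = 0.24). Ndufa10 was called higher by 0.09 (adjusted p = 0.015), the smallest called difference, but it was not called when Female replicate 2, Female replicate 3 or Male replicate 1 was left out, nor with the length and GC trends removed (adjusted p = 0.23). Other rises included Ndufc1 by 57.0% and Ndufb8 by 10.7%.

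Ndufa4, the largest difference of all members, was at 18.0, 14.3 and 17.0 CPM in Female and 31.3, 29.7 and 30.9 in Male (log2 fold change 0.90, SE 0.075, adjusted p = 3.2e-06). Every Male value was far above the Female values. Its paralogue Ndufa4l2 was near 1 CPM in all samples, with a difference of 0.40 that was not called (SE 0.23, adjusted p = 0.18). Of its exon bases 2.9% lie opposite Shmt2, which was far more abundant (mean log2 CPM 9.13 against 0.30). Shmt2 was itself higher in Male (0.46, adjusted p = 3.7e-09), and its part in the Ndufa4l2 counts was not tested. Without Ndufa4 and Ndufa4l2, 29 of 44 members were higher in Male and 2 lower.

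Of the 8 assembly genes 2 were called. Ndufaf7, a methyltransferase needed for assembly, was at 13.7, 14.4 and 13.5 CPM in Female and 18.5, 17.2 and 18.8 in Male (log2 fold change 0.39, SE 0.056, adjusted p = 0.00019). Ndufaf4, which binds Ndufaf3 in early assembly, was at 17.1, 15.1 and 16.9 CPM in Female and 21.0, 20.1 and 18.7 in Male (0.29, adjusted p = 0.0043). Both genes had groups that did not overlap. Ndufaf1, Ndufaf2, Ndufaf3, Ndufaf5, Ndufaf6 and Ndufaf8 had log2 fold changes between -0.08 and 0.01 with overlapping groups and adjusted p from 0.61 to 0.98, and standard errors from 0.066 to 0.16. Differences of the size of these standard errors were not detectable. The precision was lowest for Ndufaf2 (SE 0.16) and Ndufaf8 (SE 0.16). Leaving out 1 sample moved Ndufaf8 between -0.089 and 0.20.

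**Figure D2:**
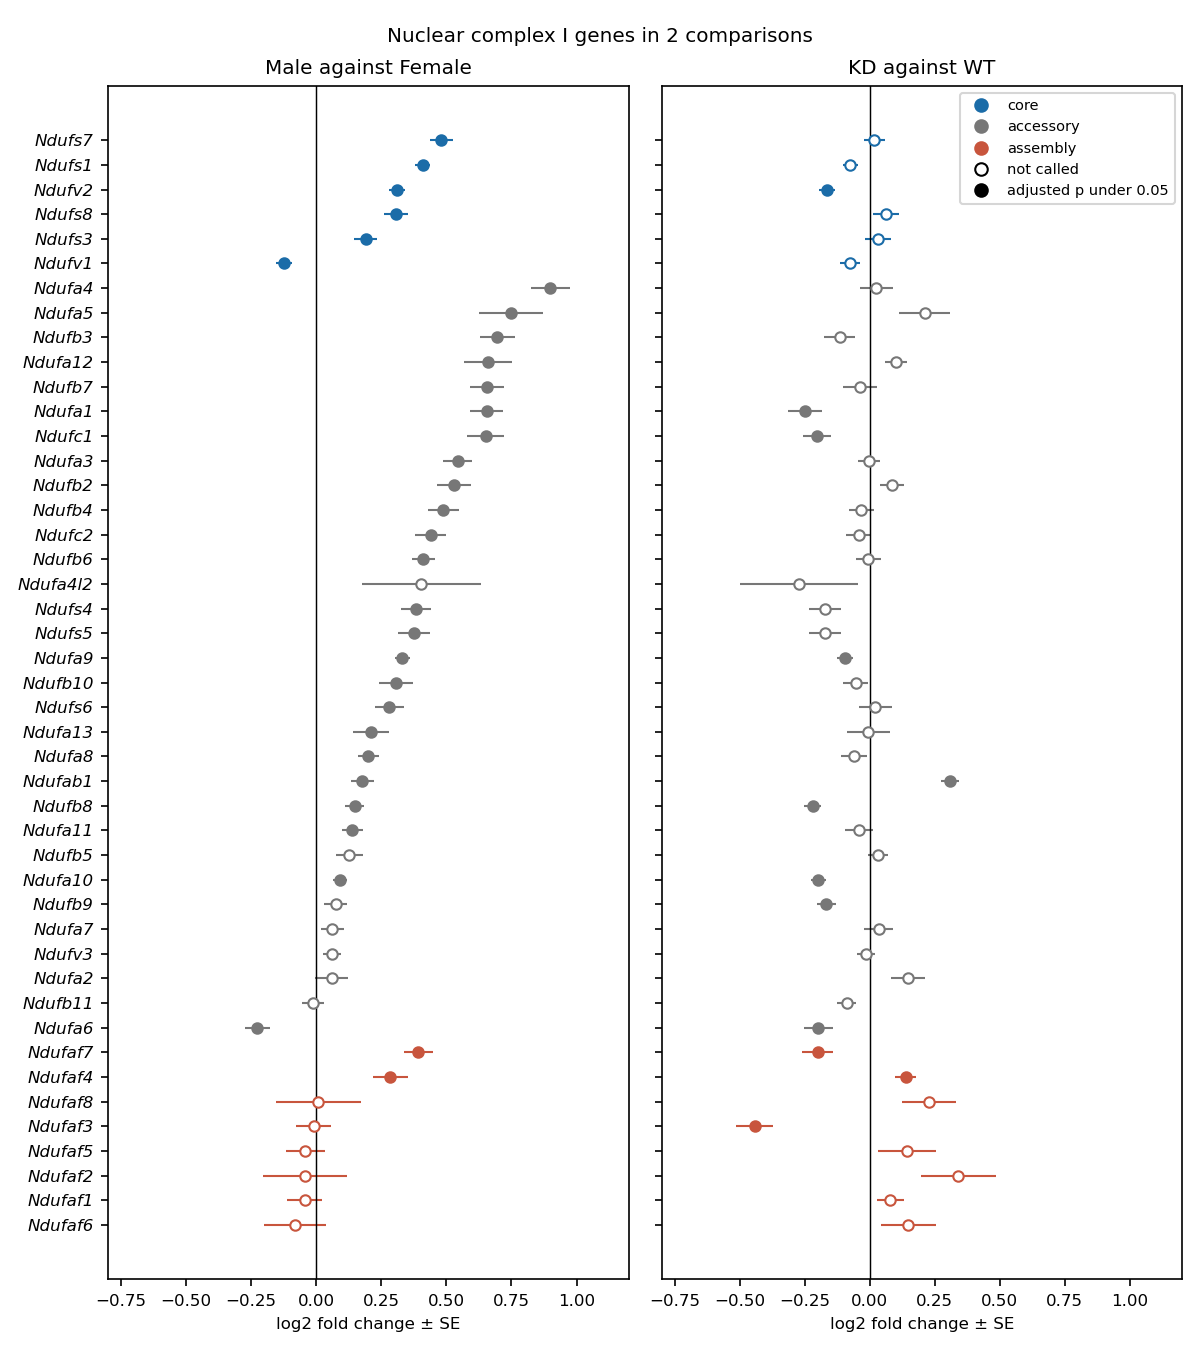
Log2 fold change with its SE for 45 of the genes in Male against Female and in KD against WT, ordered within class by the first; filled points were called at an adjusted p under 0.05. In the panel of Male against Female 30 filled points lie right of 0 and 2 left, and in the panel of KD against WT 2 lie right and 10 left.

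Other genes of complex I and of related processes were counted from hand-made lists. In this comparison 49.8% of all genes tested and 64% of protein-coding genes were called, and the difference from these shares was not tested. All 7 mitochondrially encoded complex I subunits were higher in Male, with a median log2 fold change of 0.35, such as mt-Nd2 (0.56), mt-Nd3 (0.50) and mt-Nd1 (0.46). Of 13 other complex I assembly factors 4 were higher and 4 lower. Among them Aifm1 (0.65) and Foxred1 (0.33) rose and Tmem186 (-0.36) fell. Of the 8 genes of complex II, which passes electrons to ubiquinone from succinate, the 4 subunits were higher, such as Sdhd (0.42), and the assembly factors Sdhaf1 (-1.03) and Sdhaf3 (-1.09) were lower. Of 11 tested regulators of mitochondrial biogenesis 3 were higher and 5 lower, among them Pprc1 (0.34), Gabpb1 (-0.26) and Tfb1m (-0.57). Subunits of complexes I and II were thus mostly higher in Male, while the other complex I assembly factors held calls in both directions.

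Most nuclear complex I transcripts had no called difference between KD and WT. Of the 46 members 11 were lower in KD, 2 were higher and 33 were not called. The core subunit Ndufv2 fell by 10.8%. The assembly factor Ndufaf3 fell by 26.4%, and the acyl carrier protein Ndufab1 rose by 23.9%. Among the accessory genes called lower, Ndufa9 fell by 6.37% and Ndufa1 fell by 15.8%. Neither Ndufs1 nor Ndufs7, the core subunits with the largest rises in Male, was called.

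The called share of members was 28.3%. Over all 20413 genes tested it was 35.1%, with 16.8% higher in KD and 18.4% lower, and over the 13239 protein-coding genes 48%, with 22.3% higher and 25.7% lower. WT and KD samples did not overlap in 18 of 46 members, against 46.8% of all genes tested. The difference between the share of members and that of all genes was not tested. The median log2 fold change was -0.07 for core, -0.04 for accessory and 0.14 for assembly genes, against 0.01 over all genes. The 11 calls toward lower fell to 7 without WT replicate 1, and to 6 at an adjusted p under 0.01. The share of all genes called in either direction fell too, from 35.1% to 29.1% and 24.9%.

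Summed over accessory subunits, WT samples held 1023 to 1027 CPM and KD samples 973 to 1002. The sum was lower in every KD sample than in any WT sample. The assembly sums, 92.6 to 92.9 CPM in WT and 90.8 to 94.6 in KD, overlapped.

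Among core subunits, Ndufv2 was at 62.2, 61.7 and 63.3 CPM in WT and 54.5, 56.6 and 55.9 in KD (-0.17, SE 0.031, adjusted p = 0.0019), and its groups did not overlap. The core subunits Ndufs1, Ndufv1, Ndufs8, Ndufs3 and Ndufs7 were not called. Ndufs1 had -0.07 (adjusted p = 0.09), Ndufv1 -0.08 (0.15), Ndufs8 0.06 (0.41), Ndufs3 0.03 (0.69) and Ndufs7 0.02 (0.78). Ndufs1 was called lower without KD replicate 1 (-0.10, adjusted p = 0.033), and Ndufv1 without KD replicate 2 (-0.12, adjusted p = 0.0089).

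Of the accessory subunits 7 of 31 were lower in KD and 1 was higher. Ndufab1 was at 34.8, 36.0 and 35.5 CPM in WT and 44.5, 43.8 and 43.4 in KD (log2 fold change 0.31, SE 0.034, adjusted p = 6.0e-05), with every KD sample above WT. Ndufb8 was at 63.9, 63.0 and 62.4 CPM in WT and 53.5, 55.5 and 53.6 in KD (-0.22, SE 0.031, adjusted p = 0.00032). Ndufa10, a subunit of the proximal arm, was at 107, 109 and 103 CPM in WT and 94.1, 91.2 and 93.1 in KD (-0.20, SE 0.029, adjusted p = 0.00038). Both had groups that stood apart. Ndufb9 was called at -0.17 (adjusted p = 0.0044), with counts that are uncertain because it shares 17.2% of its 31-base subsequences with another gene.

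Several other calls were lost when single samples were left out. Ndufc1 had 24.0, 25.0 and 26.3 CPM in WT and 21.3, 21.0 and 23.1 in KD (log2 fold change -0.20, adjusted p = 0.012), and was not called without WT replicate 3. Ndufa1 had 14.7, 14.9 and 13.4 CPM in WT and 12.9, 11.5 and 11.8 in KD (-0.25, adjusted p = 0.015), and was not called without WT replicate 1, WT replicate 2, KD replicate 2 or KD replicate 3. With all samples the groups of both genes did not overlap. Ndufa6, the binding partner of Ndufab1, had 26.5, 23.8 and 24.5 CPM in WT and 20.4, 22.1 and 22.6 in KD (-0.20, adjusted p = 0.018). It was thus called lower where Ndufab1 was called higher, but not without WT replicate 1 or KD replicate 1. Ndufa9 was at the edge of the threshold (-0.10, adjusted p = 0.045) and was not called when any replicate but KD replicate 1 was left out. Ndufb11 lay beyond it (-0.09, adjusted p = 0.081). Of the proximal arm's 9 subunits, all with fold changes below 0, 3 were called lower, and of the distal arm's 10 subunits 2. Ndufa4 (0.02, adjusted p = 0.81) and Ndufa4l2 (-0.27, SE 0.23, adjusted p = 0.42) were not called.

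Assembly genes moved in both directions. Ndufaf3 (chr9:108565537-108567434, minus strand), which acts with Ndufaf4, was at 12.5, 13.7 and 13.1 CPM in WT and 10.4, 8.99 and 9.62 in KD (log2 fold change -0.44, SE 0.071, adjusted p = 0.00072). Ndufaf4 was at 26.1, 24.6 and 25.2 CPM in WT and 28.2, 27.9 and 27.6 in KD (0.14, SE 0.039, adjusted p = 0.02). The partners were thus called in opposite directions, each with groups that did not overlap. Ndufaf4 was not called when WT replicate 2, WT replicate 3, KD replicate 1 or KD replicate 2 was left out. Ndufaf3 overlaps Impdh2 on the other strand over 2.6% of its exon bases, and Impdh2 was higher in KD (0.15, adjusted p = 0.00049). Ndufaf7 was at 19.2, 18.8 and 17.8 CPM in WT and 15.8, 15.3 and 17.5 in KD (-0.20, adjusted p = 0.027). It was not called without WT replicate 1, WT replicate 2, KD replicate 1 or KD replicate 2, nor with upper-quartile factors (adjusted p = 0.054). The Ndufaf7 call was also lost with the length and GC trends removed (adjusted p = 0.066), with the replicate number as a block (0.057) and with both (0.12).

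Ndufaf2, the paralogue of Ndufa12 that acts late in assembly, had 2.17, 1.71 and 2.15 CPM in WT and 2.59, 2.52 and 2.53 in KD (log2 fold change 0.34, SE 0.14, adjusted p = 0.099). Its groups did not overlap, yet it was not called at this low level, and 65.6% of its exon bases lie opposite a noncoding gene that was too low to be tested. Ndufaf1, Ndufaf5, Ndufaf6 and Ndufaf8 had differences of 0.08 to 0.23 that were not called, with adjusted p from 0.12 to 0.38.

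**Figure D3:**
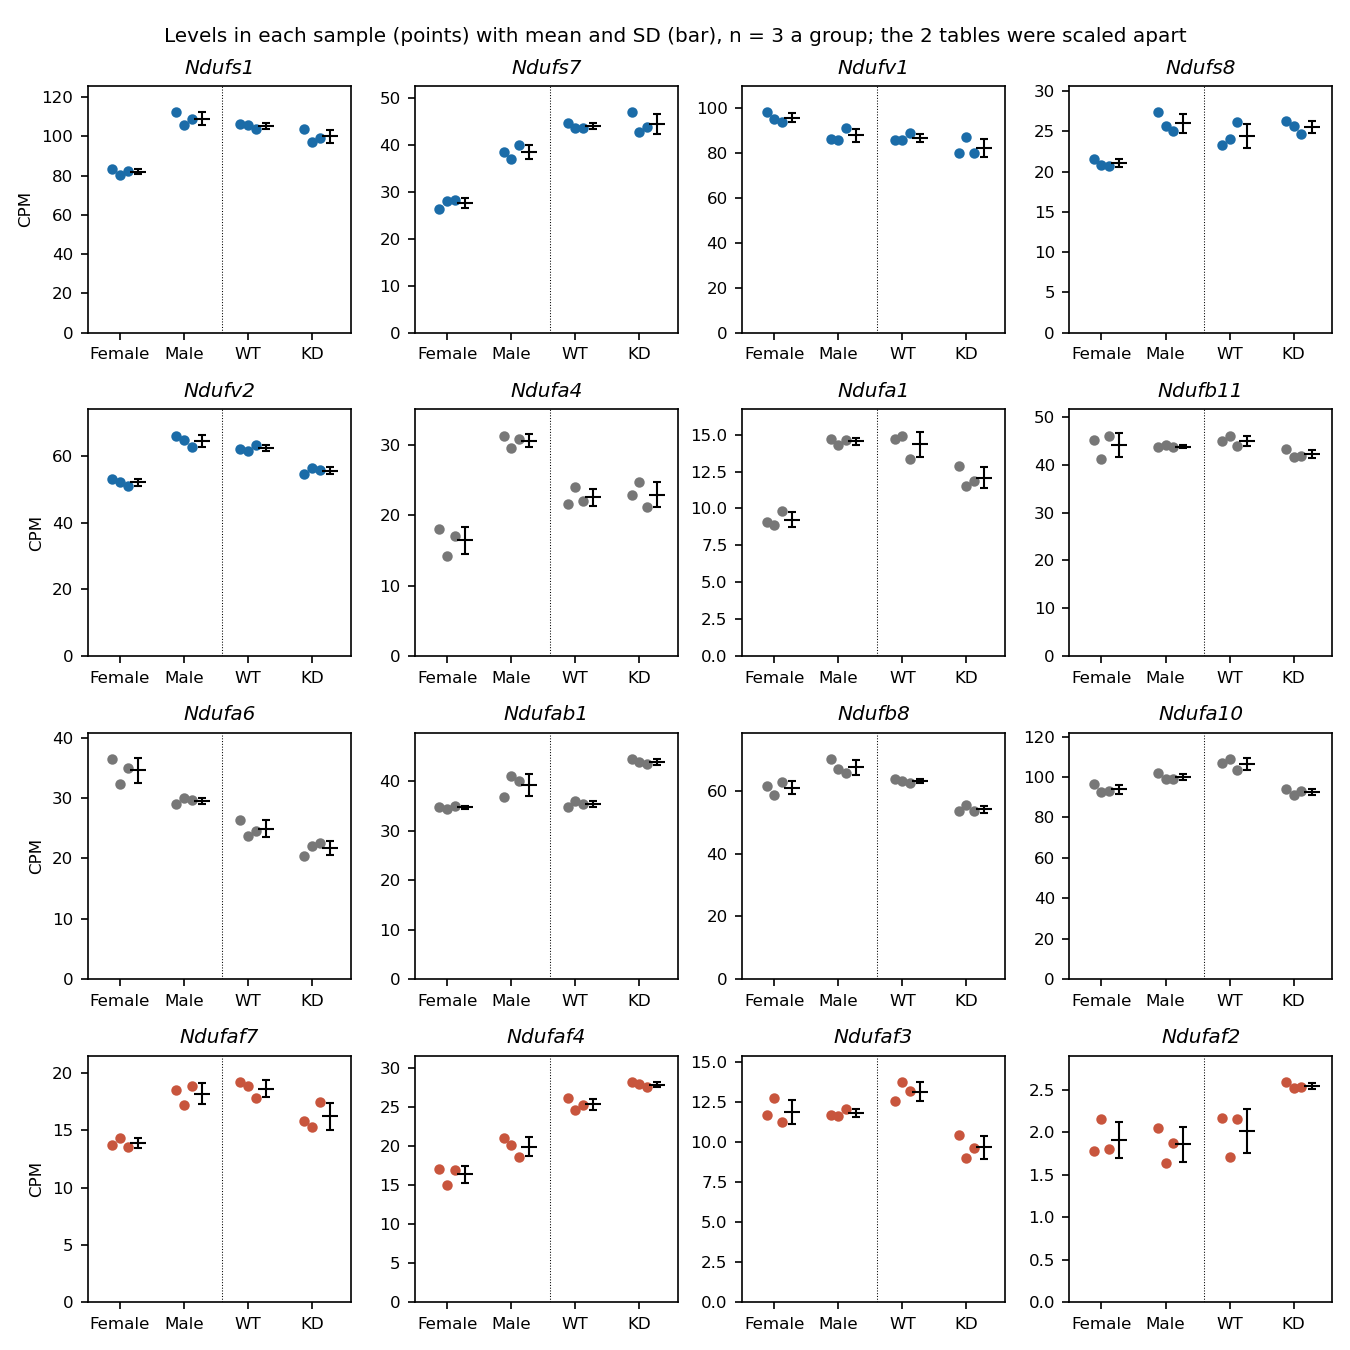
CPM of 16 of the genes in each sample (points), with the mean and SD of each group beside them (bars, n = 3), each axis starting at 0; the table of Female and Male and that of WT and KD were scaled apart. Ndufaf3 overlaps in Female and Male and falls from between 12.5 and 13.7 CPM in WT to between 8.99 and 10.4 in KD, whereas Ndufs7 rises in Male and overlaps in WT and KD.

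Calls in the related lists are set beside the 35.1% of all genes tested and 48% of protein-coding genes called in this comparison. The difference from these shares was not tested. Of the 7 mitochondrially encoded subunits mt-Nd3 was higher in KD (0.21) and mt-Nd6, the 1 subunit encoded on the other strand of the mitochondrial genome, lower (-0.39). Of the 13 other complex I assembly factors Acad9 was higher (0.10), and Tmem126a (-0.22) and Tmem126b (-0.21) were lower. Among the 8 complex II genes Sdhb was lower (-0.09). Of the 11 tested biogenesis regulators 4 were higher, among them Ppargc1b (0.37), Gabpb1 (0.22) and Pprc1 (0.18), and Yy1 was lower (-0.11).

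Set side by side, the comparisons share no samples. Of the 46 members 10 were called in both, against 25.7% of the 19529 genes tested in both. These were 7 genes higher in Male and lower in KD, namely Ndufv2, Ndufa1, Ndufa9, Ndufa10, Ndufb8, Ndufc1 and Ndufaf7. They were 15.2% of members, against 7.33% of all genes. Their count fell to 4 (8.7% of members) without WT replicate 1 or without KD replicate 2, when the share of all genes was 6.53% and 7.14%. At an adjusted p under 0.01 it was 2 (4.35%, against 5.22% of all genes). Of the 30 members higher in Male they were 23.3%, against 30.2% of all genes higher in Male and tested in both, and the difference between these shares was not tested. Ndufab1 and Ndufaf4 were higher in both comparisons, and Ndufa6 was lower in both. The other 21 members higher in Male, among them Ndufs1, Ndufs7 and Ndufa4, were not called in KD against WT. Ndufb9 and Ndufaf3 were lower in KD without a call between Male and Female, and Ndufv1 was lower in Male alone by these calls. Ndufb9 was called higher in Male when only protein-coding genes were fitted (0.13, adjusted p = 0.028), and Ndufv1 was called lower in KD without KD replicate 2. Whether the 2 effects on a gene differ was not tested. Without WT replicate 1 the count called in both was 6. That fit called 29.1% of all genes in KD against WT, against 35.1% with all samples.

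**Figure D4:**
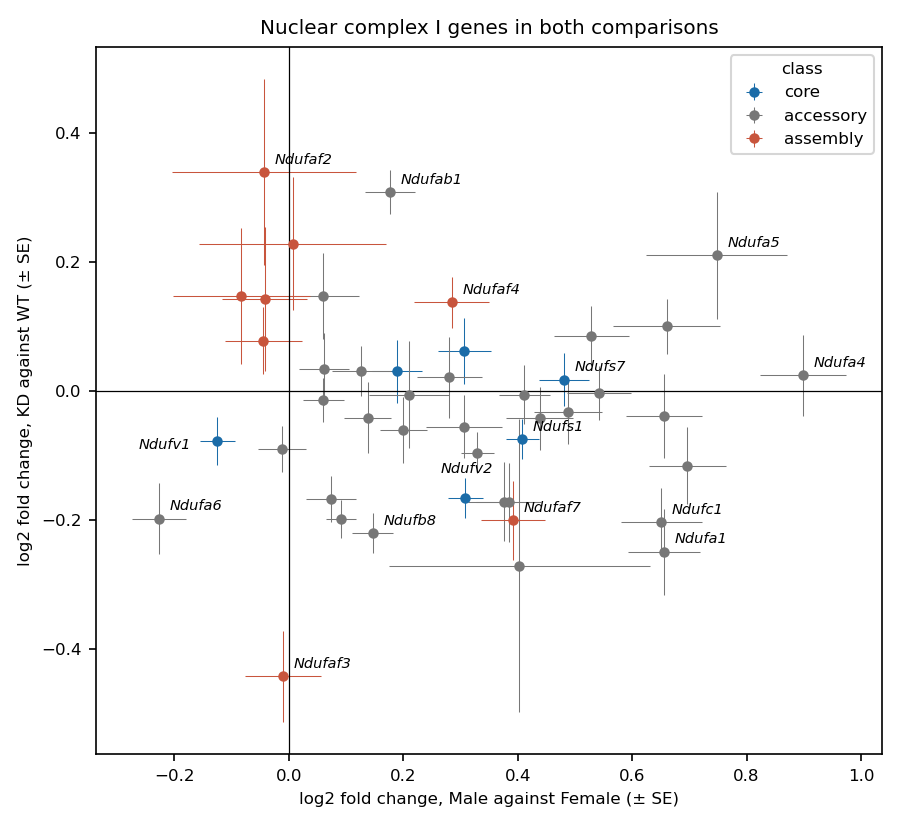
Log2 fold change in Male against Female (horizontal) and in KD against WT (vertical) for 45 of the genes, with SE bars and colours for class. The 7 genes called higher in Male and lower in KD lie in the lower right, where many points that were not called lie too; Ndufaf3 (-0.01 and -0.44) stands lowest.

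Many members start beside another gene. A gene on the opposite strand starts within 1000 bases upstream of 14 members (30.4%), against 10.8% of protein-coding genes. The pairs did not change alike throughout. Ndufaf7 and Cebpz, whose starts lie 70 bases apart, were both higher in Male (0.39 and 0.29), but only Ndufaf7 was called in KD (-0.20, against 0.02 for Cebpz). Ndufaf5 and Esf1, 85 bases apart, differed in Male, where Esf1 was higher (0.79, adjusted p = 3.8e-07) and Ndufaf5 was not called (-0.04). Ndufb9 and Tatdn1, 18 bases apart, were both lower in KD (-0.17 and -0.25).

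Transcript length and the members' neighbours bear on how far the values can be read. Across the 46 genes, which are not independent replicates, the log2 fold change had a Spearman correlation with transcript length of -0.21 in Male against Female and -0.14 in KD against WT. With the trends of length and GC removed over all genes, the medians in Male against Female were 0.18 for core and 0.25 for accessory subunits, and 29 members were still called. That fit called 49.1% of all genes. A further limit is that 17 members share exon bases with a gene on the other strand and the use of strand in counting was not given in the sources used here, so reads of the partners cannot be told apart. Among the 29 members with no overlap on the other strand, 20 were higher and 2 lower in Male, and 1 was higher and 8 lower in KD. On the same strand 3 members share exon bases with another gene, namely Ndufb2 with Gm42420, Ndufb8 with Gm20538 and Ndufb9 with Gm49356. Reads of these pairs cannot be told apart by strand, and the effect on their counts was not tested.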

How the data were processed

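RNA was sequenced from stranded, ribosomal RNA-depleted libraries, per the labels' protocols. The deposited files are 2 tables of whole-number counts for each gene, with the sexes in 1 table and the knockdown experiment in the other. These counts were used as the authors deposited them. The submitters' processing notes name bcl2fastq 2.20.0, HISAT2, StringTie, DESeq2 and mm10. How reads were assigned to genes, and with which annotation and strand setting, was not given in the sources used here. Overlapping genes and near-identical copies may therefore share counts.

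Identifiers were matched to GENCODE M21 (GRCm38, the build called mm10), which found 55227 and left 260 unmatched. Groups came from the sample titles. Each comparison was fitted alone with edgeR 4.0.16 in R 4.3.3 on the 3 samples of each group: TMM normalization, the filterByExpr filter, the quasi-likelihood test and Benjamini-Hochberg adjustment over all genes tested, called at an adjusted p under 0.05. SE is the absolute log2 fold change over the square root of F. CPM used TMM-scaled library sizes. Medians over members are descriptions. Transcript lengths are those of the principal isoform. The script was tested on simulated data.

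The members, the lists and the rule for named genes were chosen with earlier results of these data known. Named with values were the core, assembly and X-linked members, Ndufa4 and Ndufa4l2. To these came, in each comparison, up to 4 accessory and 2 assembly genes called in each direction with the smallest p, the largest change of each class, and up to 6 members called in opposite directions. Ndufa8 and Ndufa11 were named for their promoters, and further genes of either comparison after their values were seen, among them Ndufb9, Ndufa6, Ndufa9 and Ndufab1 where the rule took them for the other comparison. Neighbouring genes and lists of related genes were described without a test of the list. The values of 1 member are not reported here, though it stays in the counts and medians.

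Alternatives were DESeq2 1.42.0 size factors and test, upper-quartile factors, limma 3.58.1 (voom), low-count filters, protein-coding genes alone, removal of length and GC trends, counts divided by 4, all 12 samples in 1 fit, a stricter threshold, a replicate block and leaving out each sample. Counting of members without shared 31-base subsequences or antisense overlap was added after seeing the data.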

Additional observations from a re-analysis of the deposited data

How the results depend on the processing

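In Male against Female the counts of members called higher and lower stayed within 1.5 times of the reported values under every alternative run, and the core and accessory medians kept their sign. With protein-coding genes alone the core, accessory and assembly medians were 0.36, 0.38 and 0.028, with the length and GC trends removed 0.18, 0.25 and -0.10, and the accessory median was 0.38 without members with antisense overlap. Leaving out 1 sample gave 28 to 29 higher and 2 lower, with medians of 0.26 to 0.33 for core, 0.28 to 0.36 for accessory and -0.068 to 0.046 for assembly genes. Those fits called 44.4% to 45.2% of all genes, against 49.8% with all samples. In KD against WT, 1 gene was called higher with all 12 samples, and 1 higher and 6 lower at an adjusted p under 0.01, where 3 were called in both comparisons. Of all genes 34.3% were called in KD against WT with all 12 samples, and 24.9% at the stricter threshold. The accessory and assembly medians were -0.011 and 0.17 with upper-quartile factors, and the accessory median was -0.068 with the trends removed. Without members with antisense overlap 1 was called higher, with medians of -0.029 for core and -0.060 for accessory genes. Leaving out 1 sample gave 1 to 2 higher, 7 to 10 lower and 6 to 10 in both, with medians of -0.07 to -0.06 for core, -0.071 to -0.030 for accessory and 0.11 to 0.16 for assembly genes. Without 1 WT or KD sample 29% to 31.9% of all genes were called in KD against WT, against 35.1% with all samples.

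Among the genes chosen to be named with values, those that changed sign lay near 0 and were not called. In Male against Female they were Ndufaf8 (-0.0075 with no filter, -0.015 with all 12 samples, -0.052 with the trends removed), Ndufb11 and Ndufaf3 (0.0059 and 0.0074 with a mean of at least 1 CPM, 0.042 and 0.044 with protein-coding genes), and Ndufaf1, Ndufaf2 and Ndufaf5 (0.0095, 0.010 and 0.012 with protein-coding genes). In KD against WT they were Ndufa4 (-0.0039) and Ndufs7 (-0.045), both with the trends removed. Of the members not so chosen, Ndufa2 in Male against Female (-0.034) and Ndufa7 (-0.028), Ndufs6 (-0.037) and Ndufv3 (0.0050) in KD against WT also changed sign with the trends removed, and no other setting was examined for these. Leaving out 1 sample moved Ndufaf8 between -0.089 and 0.20, Ndufaf2 between -0.13 and 0.051, Ndufaf3 between -0.050 and 0.040 and Ndufb11 between -0.060 and 0.019 in Male against Female. In KD against WT it moved Ndufa4 between -0.035 and 0.080, Ndufs3 between -0.019 and 0.057, Ndufs7 between -0.021 and 0.045 and Ndufa11 between -0.097 and 0.013. The cause of these changes was not tested.

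Same-numbered samples did not deviate together, with correlations of -0.001 to 0.018 in Male and Female and -0.04 to 0.021 in WT and KD, so the numbers gave no pairing. With the replicate number as a block, 32 members were called in Male against Female, all 32 shared with the fit without it, and 12 in KD against WT, 11 of them shared. Over all genes the block fits called 48.2% in Male against Female and 32.8% in KD against WT. The block with the trends removed gave medians in Male against Female of 0.18, 0.25 and -0.10 for core, accessory and assembly genes and an accessory median of -0.066 in KD against WT. Ndufaf8 was then at -0.037 in Male against Female, and Ndufa4 and Ndufs7 at -0.0057 and -0.046 in KD against WT.

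Standard errors of members had a median of 0.057 in Male against Female and 0.051 in KD against WT, and the smallest called differences were 0.09 and 0.10.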
